A study of Drosophila melanogaster with 12 samples.

Results

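The Nimrod and phagocytosis receptor genes are a list of 10 fly genes: eater, NimC1, NimC2, NimC4, NimB4, NimB5, NimA, He, drpr and crq. Several of them encode proteins that bind bacteria or dying cells, while for NimC2, NimB5, NimA and He no such role is described here. The 10 genes were taken by gene symbol from a table of 11982 genes with a single platform symbol, and all were found. Genes with more than 1 probe set, here NimA, were represented by the probe set with the highest mean over the arrays. RNA was measured on 12 Affymetrix arrays of Kc167 cells, 3 for each of 4 groups. The groups are cells alone (control), cells given double-stranded RNA (dsRNA) against PTIP (PTIP cells), cells given dsRNA against polycomb and polyhomeotic (Pc/ph cells), and cells given dsRNA against all of these (Pc/ph+PTIP cells). The labels describe 6-well plates with 1000000 cells in each well, to which 15 µg of dsRNA was added, then serum to 5% after 1 hour, and a culture of 6 days. For the control group the labels name no dsRNA, and whether one was added is not known. The labels do not state whether replicates are separate cultures. P-values here reflect array-to-array spread, which may be technical.

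Kc167 is a female cell line of embryonic origin with features of plasmatocytes, the macrophage-like blood cells of Drosophila. Plasmatocytes clear bacteria and dying cells through surface receptors. Many of these belong to the Nimrod family, whose proteins carry a cysteine-rich repeat related to the EGF repeat. Eater and NimC1 are transmembrane receptors for bacteria, and NimC1 is the P1 antigen by which plasmatocytes are recognised. Draper (drpr), NimC4 (also known as Simu) and Croquemort (crq, a scavenger receptor of the CD36 family) bind apoptotic cells. The NimB proteins lack a membrane anchor and are secreted, and Hemese (He) is a glycosylated membrane protein of blood cells. PTIP is a protein of histone H3 lysine 4 methyltransferase complexes, Pc and ph belong to a Polycomb repressive complex, and the series asks how PTIP bears on repression by Polycomb.

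Before the members' values, some facts of the arrays bear on every comparison. The replicate 1 arrays of all 4 groups stand apart, with upper quartiles of 8.65 to 8.95 on the log2 scale against 9.62 to 9.74 for the other 8 arrays. Groups were therefore compared within replicate numbers, by fitting the replicate as a block in limma, and a difference was called at a Benjamini-Hochberg adjusted p under 0.05 over 18769 probe sets. Pc, a targeted gene, differed from control by -2.20, -2.49 and -2.30 on the log2 scale in Pc/ph replicates 1, 2 and 3 (called, adjusted p = 2.51e-04) and by -1.14, -0.60 and -0.50 in the Pc/ph+PTIP replicates (not called, adjusted p = 0.0601). Ptip differed from control by -0.72, -0.19 and -0.44 in the PTIP replicates and by -1.01, -0.46 and 0.15 in the double knockdown, so its transcript was not lower in Pc/ph+PTIP replicate 3. Neither Ptip difference was called (adjusted p = 0.296 and 0.339). Genes of the Y chromosome, which this female line lacks, give a background range: the highest of 6 such genes read 5.11 to 5.57 on the individual arrays.

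The cells carried plasmatocyte transcripts in every group. The 7 plasmatocyte markers Hml, Pxn, Col4a1, vkg, SPARC, Ppn and Glt had a mean of 11.36 to 13.08 on the log2 scale on the single arrays, with 0 of them at or below background. Crystal cell markers (lz, PPO1 and PPO2) averaged 5.41 to 5.83 on the log2 scale, and 2 of the 3 had a group mean at or below background in each group. The 4 lamellocyte markers measured averaged 6.45 to 7.07, carried by msn, which has group means of 10.86 to 11.10 and is not confined to lamellocytes, while atilla, ItgaPS4 and PPO3 had group means of 4.85 to 5.95. For 1 of the 4 the group mean was at or below background in each group. The 6 fat body markers averaged 5.17 to 5.61. In a culture, fewer cells of a type and less RNA per cell cannot be told apart.

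**Figure D1:**
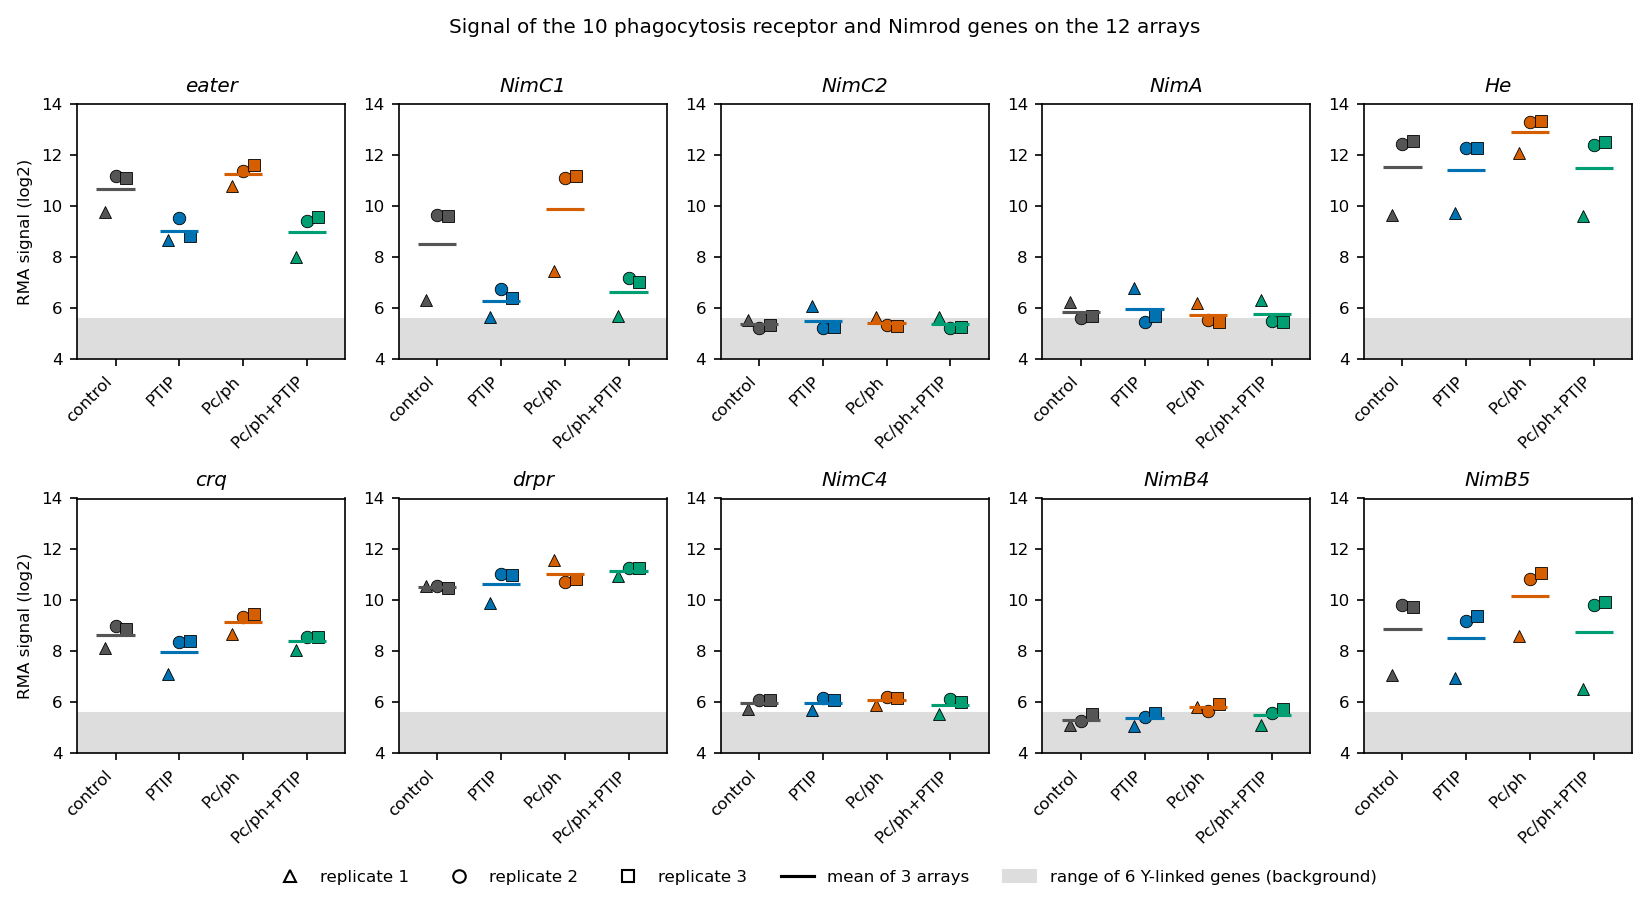
RMA signal on the log2 scale (vertical axis) of each of the 10 genes on the 12 arrays, by group (horizontal axis). Triangles, circles and squares are replicates 1, 2 and 3, horizontal lines are means of 3 arrays, and the grey band spans the values of 6 Y-linked genes; eater and NimC1 lie lower in both groups that received PTIP dsRNA, and NimC2 lies in or near the band.

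Of the 10 members 5 were called in at least 1 comparison and 5 in none. The share of all probe sets called in at least 1 comparison is not given, so this count has no reference. Against control, eater, NimC1 and crq were lower in PTIP cells. Thus 3 of the 10 were called, all lower, where 6.52% of all probe sets were called and 3.8% were called lower. NimB5 and He were higher in Pc/ph cells, 2 of the 10, where 1.53% of probe sets were called and 0.709% were called higher. In Pc/ph+PTIP cells only eater was called against control, 1 of 10 and lower, where the share over all probe sets was 5.57%, with 2.86% lower. When Pc/ph+PTIP cells were set against Pc/ph cells, eater, NimC1, crq, NimB5 and He were lower, 5 of 10 against 5.5% of probe sets, with 2.61% lower. The median difference of the 10 genes was -0.05 on the log2 scale in PTIP cells, 0.50 in Pc/ph cells and -0.07 in Pc/ph+PTIP cells, beside medians of 0.03, -0.000603 and 0.01 over the 11982 genes. These 3 comparisons share the control arrays. The members were chosen with earlier results known, so these counts describe them and test nothing about the family. None of these calls was made by limma without the replicate block, where the smallest adjusted p of a member was 0.366, 1, 0.353 and 0.147 in these 4 comparisons. In those fits 1, 1, 1 and 2 members had an unadjusted p under 0.05, and 0.272, 0.197, 0.272 and 0.298% of probe sets were called. Calls use the adjusted p. The share of all probe sets at an unadjusted p under 0.05 is not given, here or below, so counts at that cut have no reference.

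The bacterial receptor gene eater fell wherever PTIP dsRNA was present. Its signal in replicates 1, 2 and 3 was 9.77, 11.18 and 11.10 in control cells, 8.68, 9.51 and 8.80 in PTIP cells, 10.78, 11.36 and 11.62 in Pc/ph cells and 8.0, 9.39 and 9.56 in Pc/ph+PTIP cells. All 6 arrays with PTIP dsRNA thus lay below all 6 arrays without it. The fitted difference from control was -1.68 ± 0.23 (SE, n = 3; limma adjusted p = 0.00324) in PTIP cells, which is 31.1% of the control level, and -1.70 ± 0.23 (adjusted p = 0.00336) in Pc/ph+PTIP cells. In Pc/ph cells eater was higher in each replicate, by 1.01, 0.18 and 0.53, but this was not called (0.57 ± 0.23, adjusted p = 0.420). From Pc/ph to Pc/ph+PTIP cells it fell by 2.27 ± 0.23 on the log2 scale (adjusted p = 6.73e-04), to 20.7% of the Pc/ph level. In order of their means the groups ran Pc/ph, control, PTIP and Pc/ph+PTIP. Of the neighbours in that order control and PTIP differed, while Pc/ph and control were not called and PTIP and Pc/ph+PTIP lay 0.02 apart (interval -0.53 to 0.50 at 95%, limma). Its 3 calls held when any single array was left out, with adjusted p up to 0.0233.

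NimC1, the second receptor for bacteria, was also lowest in the groups with PTIP dsRNA, and there PTIP cells had the lower mean (6.27 against 6.63 in Pc/ph+PTIP cells). Control cells gave 6.31, 9.64 and 9.59 in replicates 1, 2 and 3, PTIP cells 5.66, 6.76 and 6.38, Pc/ph cells 7.44, 11.08 and 11.16, and Pc/ph+PTIP cells 5.70, 7.18 and 7.02. In every replicate the order was Pc/ph, control, then the groups with PTIP dsRNA. The PTIP and Pc/ph+PTIP arrays of replicate 1 read near the background range, which limits how far NimC1 could be seen to fall there. Its difference from control was -2.24 ± 0.51 in PTIP cells (SE, n = 3; limma adjusted p = 0.0279), with differences of -0.65, -2.88 and -3.20 in the 3 replicates. Its call was lost without control replicate 2 or 3 (adjusted p = 0.112 and 0.124) and without PTIP replicate 2 or 3 (0.103 and 0.132). Against Pc/ph cells, NimC1 changed by -3.27 ± 0.51 in Pc/ph+PTIP cells (adjusted p = 0.00592), to 10.4% of the Pc/ph level, and this call held without any single array.

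Further differences of NimC1 were not called over all 3 replicates and were called within replicates 2 and 3. Fits within replicates 2 and 3, here and below, have 2 arrays per group and no block unless one is named. They were chosen after seeing the data. In them 14, 5.86 and 11.7% of probe sets were called in PTIP, Pc/ph and Pc/ph+PTIP against control, and 15.7% in Pc/ph+PTIP against Pc/ph cells. In Pc/ph cells it was higher by 1.14, 1.45 and 1.57 (fit 1.39 ± 0.51, limma adjusted p = 0.331). In replicates 2 and 3 alone, fitted without a block, the rise was 1.51 ± 0.11 (adjusted p = 2.79e-05), in a comparison where 5.86% of probe sets passed. In Pc/ph+PTIP cells NimC1 differed from control by -0.61, -2.46 and -2.57 (fit -1.88 ± 0.51, adjusted p = 0.0610). In replicates 2 and 3 alone this was -2.52 ± 0.11 (adjusted p = 1.29e-06), where 11.7% of probe sets passed. The latter difference was called as well without PTIP replicate 1 (adjusted p = 0.0183) or Pc/ph replicate 1 (0.0173). NimC2, a related gene of the same stretch, stayed at 5.20 to 6.06 on the log2 scale in all arrays. It did not exceed the highest Y-linked gene on 8 of the 12 arrays, so the arrays give little information on it, and it was called in none of the 6 comparisons.

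Among the receptors for dying cells, crq moved like eater but less far. Its values in replicates 1, 2 and 3 were 8.12, 8.98 and 8.89 in control cells, 7.10, 8.39 and 8.39 in PTIP cells, 8.67, 9.35 and 9.47 in Pc/ph cells and 8.05, 8.57 and 8.55 in Pc/ph+PTIP cells. Within each replicate Pc/ph cells were highest and PTIP cells lowest. In PTIP cells crq fell by 0.70 ± 0.14 on the log2 scale (SE, n = 3; limma adjusted p = 0.0151), to 61.4% of control. From Pc/ph to Pc/ph+PTIP cells it fell by 0.77 ± 0.14 (adjusted p = 0.0106). The first call was lost without control replicate 1, 2 or 3 (adjusted p = 0.0589, 0.0610 and 0.0509), and the second without Pc/ph replicate 3 or Pc/ph+PTIP replicate 2 or 3 (0.0584, 0.0689 and 0.0712). In Pc/ph cells crq was higher by 0.55, 0.37 and 0.58 (adjusted p = 0.132), which was called without PTIP replicate 1 (0.0134) and in replicates 2 and 3 alone (0.48 ± 0.07, adjusted p = 0.0034). Against control, Pc/ph+PTIP cells differed by -0.27 ± 0.14 (adjusted p = 0.375). In replicates 2 and 3 alone that difference was -0.38 ± 0.07 and was called (adjusted p = 0.00778). The crq probe set carries the suffix that Affymetrix gives to sets which match several transcripts.

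Draper, the engulfment receptor for apoptotic cells and neuronal debris, was called in no comparison over the 3 replicates. Its gene drpr read 10.57, 10.55 and 10.51 in the control arrays, 9.91, 11.05 and 11.01 in PTIP cells, 11.57, 10.73 and 10.84 in Pc/ph cells and 10.96, 11.26 and 11.26 in Pc/ph+PTIP cells. Both the Pc/ph and the Pc/ph+PTIP arrays lay above all control arrays, and the PTIP arrays lay on both sides of them. The limma adjusted p over the 6 comparisons ran from 0.350 to 1. In PTIP cells the difference from control was -0.67 in replicate 1 and 0.49 and 0.51 in replicates 2 and 3. Within replicates 2 and 3 drpr was called higher in PTIP cells (0.50 ± 0.07, adjusted p = 0.00119, with 14% of probe sets called) and in Pc/ph+PTIP cells (0.73 ± 0.07, adjusted p = 1.20e-04). In Pc/ph+PTIP against Pc/ph cells it differed by -0.61, 0.53 and 0.42, and again replicates 2 and 3 gave a call (0.48 ± 0.07, adjusted p = 0.00131, with 15.7% of probe sets called). The PTIP contrasts of drpr thus had opposite signs in replicate 1 and in the other replicates.

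NimC4, the receptor that tethers apoptotic cells in embryonic macrophages and glia, changed little. Its 12 values ran from 5.55 to 6.19 on the log2 scale and were above the highest Y-linked gene on every array. The fitted differences from control were 0.01 in PTIP cells, 0.11 in Pc/ph cells and -0.06 with both dsRNAs (SE 0.07, n = 3), none of them called by limma (adjusted p = 0.957, 0.759 and 0.819). The 95% intervals of these differences reached from -0.22 to 0.28, so larger changes in signal lie outside them, though a probe set this close to background can understate a change in transcript.

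The secreted NimB5, known as a regulator of blood cell proliferation and adhesion in larvae, rose after Pc/ph dsRNA. Control cells gave 7.09, 9.84 and 9.75 in replicates 1, 2 and 3, PTIP cells 6.96, 9.20 and 9.37, Pc/ph cells 8.60, 10.84 and 11.07, and Pc/ph+PTIP cells 6.52, 9.84 and 9.93. The ranges of the groups overlap, and replicate 1 reads lower in all of them. In every replicate the Pc/ph array was highest. The rise in Pc/ph cells was 1.28 ± 0.19 (SE, n = 3; limma adjusted p = 0.00865), or 2.43-fold, with 1.51, 1.01 and 1.32 in the 3 replicates. It was not called without control replicate 3 (1.22, adjusted p = 0.0553). From Pc/ph to Pc/ph+PTIP cells NimB5 fell by 1.41 ± 0.19 (adjusted p = 0.00304), and Pc/ph+PTIP cells lay near control (-0.13 ± 0.19, adjusted p = 0.866, interval -0.55 to 0.30). In PTIP cells the difference of -0.38 ± 0.19 was not called (adjusted p = 0.344). In replicates 2 and 3 alone it was -0.50 ± 0.09 and was called (adjusted p = 0.00609).

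NimB4, a secreted protein that binds apoptotic cells, was close to background. Its values were 5.12, 5.27 and 5.56 in control cells, 5.09, 5.44 and 5.60 in PTIP cells, 5.81, 5.68 and 5.93 in Pc/ph cells and 5.12, 5.59 and 5.75 in Pc/ph+PTIP cells. The 3 Pc/ph arrays lay above all control and PTIP arrays. The difference in Pc/ph cells, 0.49 ± 0.11 on the log2 scale (SE, n = 3), just missed the threshold (limma adjusted p = 0.0584). It passed without PTIP replicate 1 (0.0452) or Pc/ph+PTIP replicate 1 (0.0391), in replicates 2 and 3 with the block (0.0137), though not without it (0.0971), and with a variance prior that follows the signal level (0.0277).

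Hemese, a membrane protein that in larvae restrains the blood cell response to parasitoid wasps, rose with NimB5. He read 9.64, 12.44 and 12.55 in control cells, 9.74, 12.26 and 12.27 in PTIP cells, 12.09, 13.28 and 13.35 in Pc/ph cells and 9.62, 12.39 and 12.50 in Pc/ph+PTIP cells. In each replicate the Pc/ph array was highest and the other 3 groups lay close together. The rise in Pc/ph cells was 1.36 ± 0.29 (SE, n = 3), at the edge of the threshold (limma adjusted p = 0.0496), and was 2.44 in replicate 1 against 0.84 and 0.80 in replicates 2 and 3. Within replicates 2 and 3 alone, fitted without a block, the rise was 0.82 ± 0.08 and was called (limma adjusted p = 1.04e-04, with 5.86% of probe sets called).

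The call for He in Pc/ph cells was lost in 9 of the 12 fits that left out an array. These were the fits without control replicate 1, 2 or 3 (adjusted p = 0.195, 0.147 and 0.115), PTIP replicate 2 or 3 (0.0828 and 0.0826), Pc/ph replicate 2 or 3 (0.0577 and 0.0576) and Pc/ph+PTIP replicate 2 or 3 (0.0845 and 0.0878). Against Pc/ph cells, He changed by -1.40 ± 0.29 in Pc/ph+PTIP cells (limma adjusted p = 0.0203). That call was lost without Pc/ph+PTIP replicate 1, 2 or 3 (0.0872, 0.0714 and 0.0692). In replicates 2 and 3 alone, fitted without a block, the difference was -0.86 ± 0.08 and was called (adjusted p = 4.22e-05, with 15.7% of probe sets called). In Pc/ph+PTIP cells He differed from control by -0.03, -0.04 and -0.05.

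NimA, a transmembrane protein of the same family, was the remaining member. Its values were 6.20 to 6.77 in the replicate 1 arrays and 5.45 to 5.69 in the other 8, with 2 of the 12 arrays at or below the highest Y-linked gene. Against control it differed by 0.14 after PTIP dsRNA, by -0.10 after Pc/ph dsRNA and by -0.09 after both, each with an SE of 0.12 (n = 3), and limma called none. Its other probe set, at 5.38 to 5.90, was not called either.

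**Figure D2:**
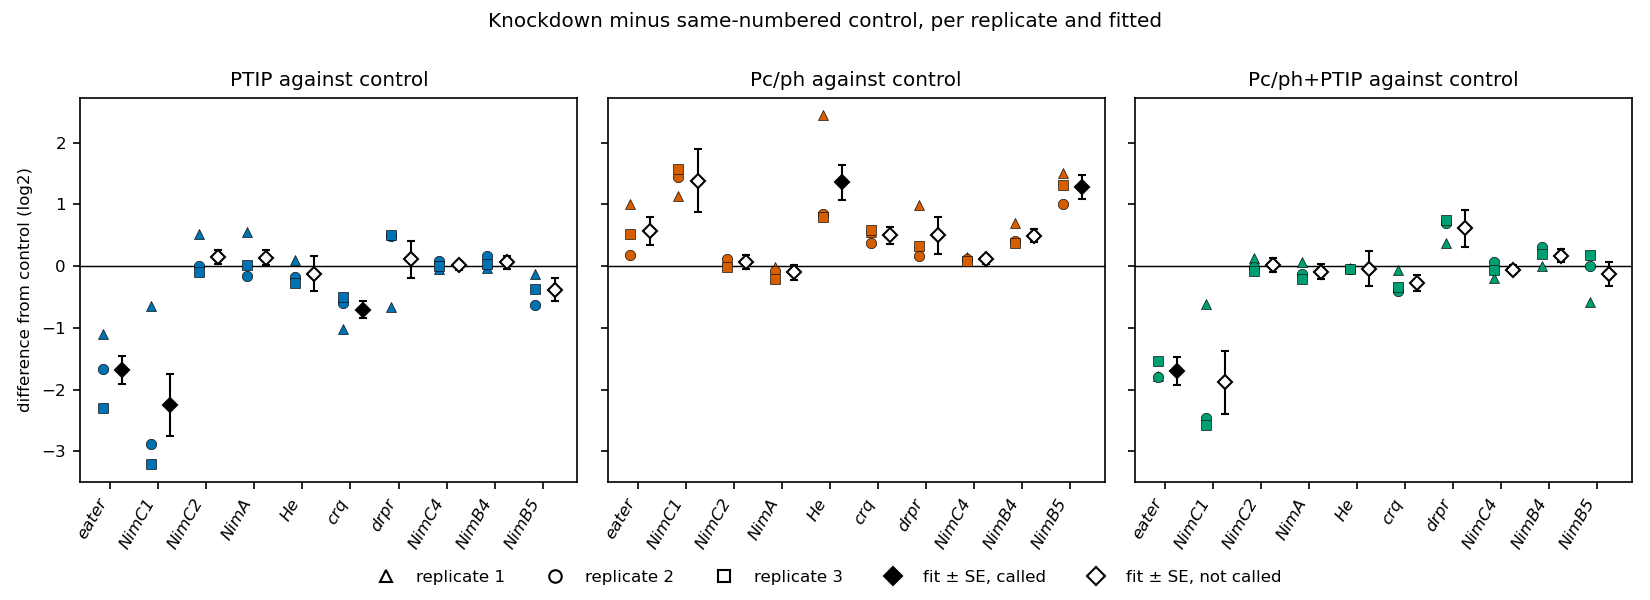
Difference from control on the log2 scale (vertical axis) for each of the 10 genes (horizontal axis) in PTIP, Pc/ph and Pc/ph+PTIP cells. Coloured symbols are differences from the same-numbered control array and diamonds the limma fit with the replicate block ± SE, filled where called; drpr in PTIP cells has replicate 1 at -0.67 and the other replicates at 0.49 and 0.51, and He in Pc/ph cells has replicate 1 at 2.44.

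Adding PTIP dsRNA can be read in cells with and without Pc/ph dsRNA, and the arrays behind these comparisons do not overlap. Both tests take their spread from the same fit of all 12 arrays, so their calls are not independent. All 3 members that fell in PTIP cells against control also fell in Pc/ph+PTIP against Pc/ph cells. The share of all probe sets lower in PTIP cells that were lower in both is not given, so this overlap has no reference. For eater the differences were -1.68 and -2.27, for NimC1 -2.24 and -3.27 and for crq -0.70 and -0.77 on the log2 scale. NimB5 gave -0.38 and -1.41 and He -0.12 and -1.40, so their called fall was in Pc/ph cells, where both stood higher. Whether the effect of PTIP dsRNA differed between the backgrounds was tested by the interaction, which was called for 0 of the 10 members by limma with the block, where 0.186% of probe sets were called. Of the 10, 3 had an unadjusted p under 0.05, namely NimB5 (-1.03 ± 0.27, limma adjusted p = 0.417), He (-1.28 ± 0.40, adjusted p = 0.689) and NimB4 (-0.38 ± 0.15, adjusted p = 0.966). Without the block limma called 0 of the 10, 0 had an unadjusted p under 0.05, and 0.00533% of probe sets were called.

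Within replicates 2 and 3 the interaction was called for NimC1 (-0.99 ± 0.16, limma adjusted p = 0.0133) and He (-0.64 ± 0.11, adjusted p = 0.0154), 2 of 10 where 1.41% of probe sets were called. Over the 3 replicates the interaction of NimC1 was -1.10, -1.03 and -0.94 (fit -1.02 ± 0.72, not called), and that of He was -2.56, -0.71 and -0.57. The replicate 1 value of NimC1 has a limit, as its PTIP and Pc/ph+PTIP arrays there read near background (5.66 and 5.70). For He the interaction was also called without Pc/ph replicate 1 (-0.78, adjusted p = 0.0336).

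The converse comparison, Pc/ph+PTIP against PTIP cells, asks what Pc/ph dsRNA does where PTIP dsRNA is present. Here 0 of 10 members were called by limma, with 1 at an unadjusted p under 0.05 (crq, 0.43 ± 0.14), and 0.032% of probe sets were called. NimB5 differed by 0.25 ± 0.19 (interval -0.18 to 0.67), He by 0.08 ± 0.29 (-0.56 to 0.72) and NimC1 by 0.36 ± 0.51 (-0.76 to 1.49), beside 1.28, 1.36 and 1.39 in Pc/ph against control cells. Within replicates 2 and 3 NimB5 was called higher here (0.60 ± 0.09, adjusted p = 0.0310, with 0.325% of probe sets called). Pc itself stood 1.59 ± 0.20 higher in Pc/ph+PTIP than in Pc/ph cells (adjusted p = 0.00208), and the part of this weaker depletion in the members' values was not tested.

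**Figure D3:**
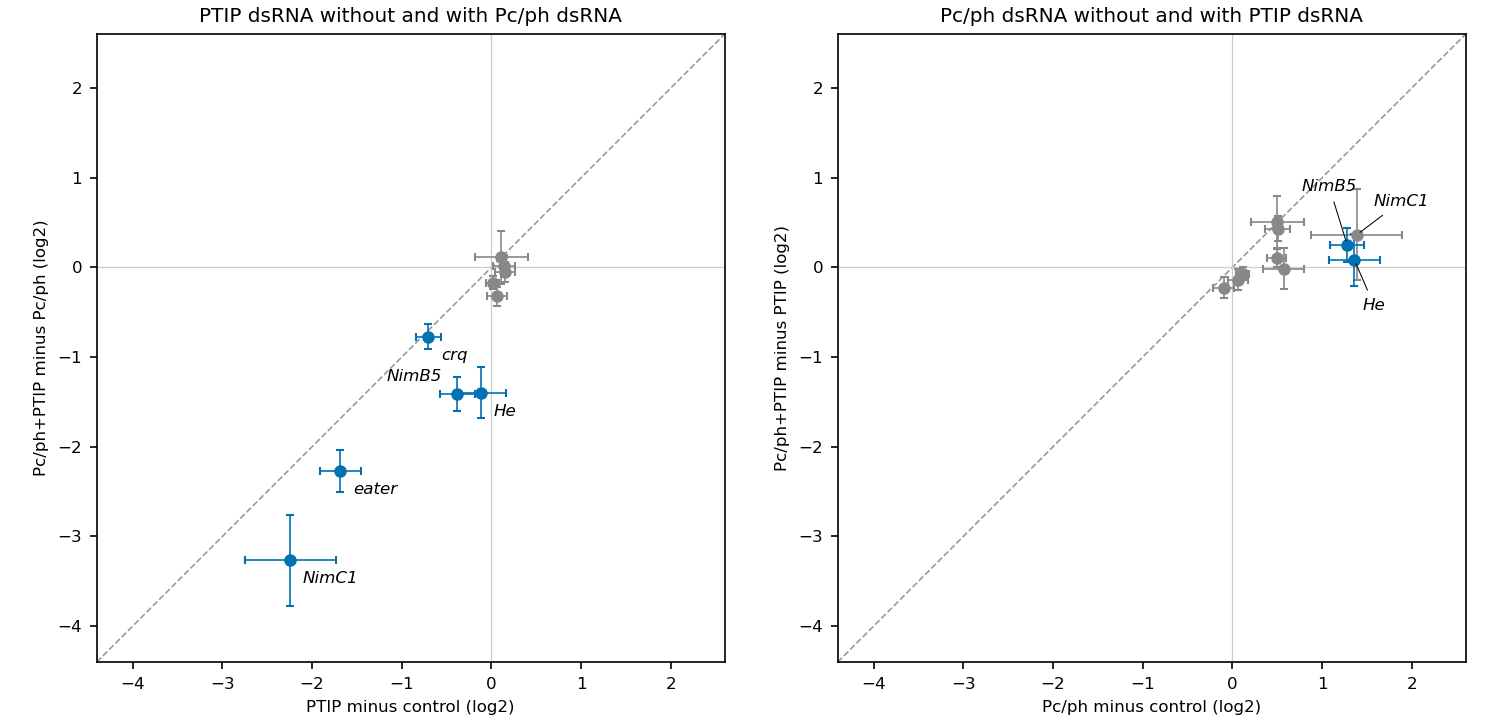
Fitted log2 differences ± SE of the 10 genes, with PTIP dsRNA on the left (control background on the horizontal axis, Pc/ph background on the vertical axis) and Pc/ph dsRNA on the right (control background horizontal, PTIP background vertical). Blue points were called in either comparison and the dashed line marks equal differences; NimB5, He and NimC1 lie off that line in both panels, with interactions of -1.03, -1.28 and -1.02, none of them called.

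The members differed widely in how far the replicate 1 arrays lay from the others. The mean over the 4 groups of replicate 1 minus the mean of replicates 2 and 3 was -2.69 for NimB5, -2.36 for He and -2.32 for NimC1, at the 0.050, 0.125 and 0.15 percentile of all genes. It was -1.01 for eater, -0.84 for crq and -0.15 for drpr, and 0.46 and 0.82 for NimC2 and NimA. NimC1 showed this gap mainly where it was high, with -3.31 in control and -3.68 in Pc/ph cells against -0.91 after PTIP dsRNA and -1.40 after both dsRNAs. For He the gap was -1.23 in Pc/ph cells and -2.53 to -2.85 in the other groups. The labels do not say what set the replicate 1 arrays apart, and its part in these values was not tested.

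Gene order ties several members together. In the RefSeq gene table (assembly Release 6 plus ISO1 MT, used for names and order only), 7 members lie on chromosome arm 2L in a single stretch that runs NimA, NimB1, NimB2, NimB3, NimB4, NimB5, He, NimC1, Cyp28a5, NimC2 and, further on, NimC3 and NimC4. The genes eater, on arm 3R, drpr, on arm 3L, and crq, elsewhere on arm 2L, lie apart. With 3 flanking genes on each side the stretch holds 29 genes, of which 22 were measured under a single symbol. In Pc/ph cells 2 of the 22 were called, both higher, where 1.53% of all probe sets were called and 0.709% higher. They are the members NimB5 and He already described, neighbours which overlap by 78 bases in that assembly. Their next neighbours on either side, NimB4 (0.49) and NimC1 (1.39), were higher in all 3 replicates without passing, and Cyp28a5, a cytochrome P450 gene beyond NimC1, differed by 0.55 (limma adjusted p = 0.415). The genes at a greater distance gave -0.15 to 0.21, but many of them could hardly show a change. Vajk3, rk, NimC3, CG18095, CG15293 and CG31769 read at or below the highest Y-linked gene on 12 of 12 arrays, bgm on 11 and NimC2 on 8.

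After PTIP dsRNA the called genes of this stretch were NimC1 and its neighbour Cyp28a5, 2 of 22, both lower, where 6.52% of all probe sets were called and 3.8% lower. Cyp28a5 fell by 2.57 on the log2 scale (limma adjusted p = 5.07e-04), and differed by -2.52 in Pc/ph+PTIP cells (adjusted p = 3.99e-04), where it was the 1 called gene of the stretch. Its difference in Pc/ph+PTIP against Pc/ph cells was -3.07 (adjusted p = 1.38e-04). The genes NimC2 and rk, which follow, gave 0.15 and 0.07 in PTIP cells, but both lay at or near background, with rk at or below the highest Y-linked gene on all 12 arrays. Near the other end NimB1 gave -0.82 ± 0.27 in PTIP cells without passing (adjusted p = 0.112).

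**Figure D4:**
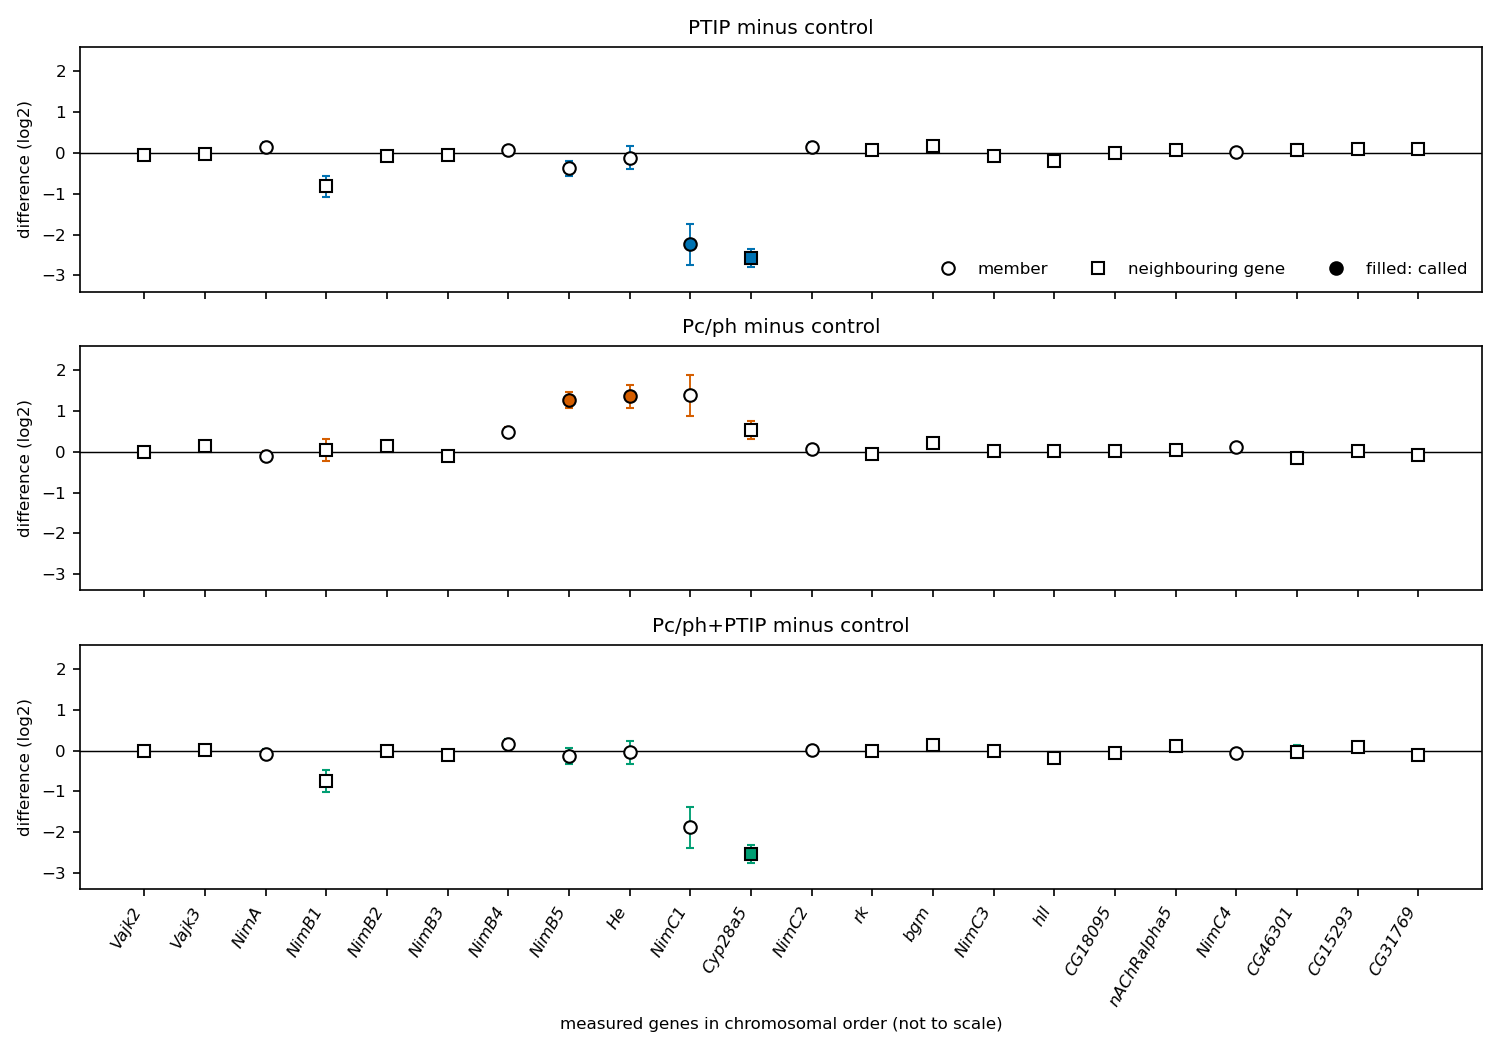
Difference from control on the log2 scale ± SE (vertical axis) for the 22 measured genes around the Nimrod genes, in chromosomal order without scale (horizontal axis), in PTIP, Pc/ph and Pc/ph+PTIP cells. Circles are members, squares other genes, and filled symbols were called; NimB5 and He are filled in Pc/ph cells, NimC1 and Cyp28a5 in PTIP cells, and Cyp28a5 in Pc/ph+PTIP cells.

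Further genes of the phagocytic pathway were described by their counts. The other Nimrod genes NimB1, NimB2, NimB3 and NimC3 were called by limma in none of the 6 comparisons, with at most 1 of the 4 at an unadjusted p under 0.05 in any of them. Of 15 measured phagocytic receptors and opsonins besides the members, 1 fell in PTIP cells, 0 passed in Pc/ph cells and 1 fell in Pc/ph+PTIP cells, with medians of -0.08, 0.06 and -0.16. Over all probe sets 6.52, 1.53 and 5.57% were called, so these counts lie near the overall share. At an unadjusted p under 0.05 limma gave 5, 7 and 7 of the 15, with no share over all probe sets at that cut to set beside them. The gene that fell both times was Sr-CI, a scavenger receptor for bacteria, with -1.20 ± 0.30 (limma adjusted p = 0.04) and -1.32 ± 0.30 (adjusted p = 0.0303). In Pc/ph+PTIP against Pc/ph cells Itgbn, an integrin subunit known for uptake of apoptotic cells and bacteria, and Sr-CIV fell while Pvr, a growth factor receptor, rose. Of the 15, 2 were thus called lower and 1 higher, where 5.5% of all probe sets were called and 2.61% lower. These 3 were named after their values were seen. Itgbn changed by -1.93 ± 0.38 (adjusted p = 0.0175) and differed by 1.48 ± 0.38 in Pc/ph against control cells (adjusted p = 0.114).

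Downstream of the receptors, of 14 measured genes of engulfment signalling and phagosome maturation, 0 were called against control in any knockdown, with differences between -0.24 and 0.39 on the log2 scale and medians of -0.02, 0.13 and 0.07 in PTIP, Pc/ph and Pc/ph+PTIP cells. Over all probe sets 6.52, 1.53 and 5.57% were called, so a count of 0 among 14 is near the overall share. At an unadjusted p under 0.05 limma gave 2, 1 and 3 of the 14, again without a share over all probe sets at that cut. Ced-12, an activator of Rac in engulfment, was the 1 gene of the 14 called in Pc/ph+PTIP against Pc/ph cells, with -0.33 ± 0.08 (limma adjusted p = 0.0425). In that comparison 5.5% of all probe sets were called. Of 5 blood cell transcription factors, the 3 genes gcm, gcm2 and lz had group means at or below background in each group and could hardly show a change. The gene ush, a partner of GATA factors, changed by -0.48 ± 0.11 in PTIP cells (limma adjusted p = 0.0315), 1 of 5 where 6.52% of all probe sets were called. In Pc/ph+PTIP against Pc/ph cells ush changed by -0.49 ± 0.11 (adjusted p = 0.0296), 1 of 5 where 5.5% were called. The GATA factor gene srp differed by 0.03 and 0.08 in these comparisons (SE 0.09) and was not called.

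Plasmatocyte markers outside the family were split. Of 7, 2 fell and 0 rose in PTIP cells, 3 fell and 0 rose in Pc/ph cells, and 2 fell and 0 rose in Pc/ph+PTIP cells, with medians of -0.16, 0.24 and -0.43, where 6.52, 1.53 and 5.57% of all probe sets were called. Set against Pc/ph cells, Pc/ph+PTIP cells had 1 lower and 0 higher, where 5.5% of probe sets were called. Glt, a secreted glutactin, fell by 1.70 ± 0.24 in PTIP cells (limma adjusted p = 0.00369) and differed by 1.06 ± 0.24 in Pc/ph cells (adjusted p = 0.0712). The collagen genes vkg and Col4a1 differed by -0.97 ± 0.19 (adjusted p = 0.0320) and -0.95 ± 0.19 (adjusted p = 0.0345) in Pc/ph cells, in which NimB5 and He rose. Hml and Pxn, markers of the same cells, were not called in any comparison, with differences from control of -0.15 to 0.32 and 0.04 to 0.24. The part of any shift in blood cell state in the members' values was not tested.

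Patterns over the 12 arrays, after subtracting each replicate number's mean, were compared by Pearson's r as a description. Among the members, He tracked NimB4 (r = 0.92) and NimB5 (r = 0.92), and eater tracked NimC1 (r = 0.91), while drpr and eater gave -0.07. Of all genes the closest to eater were CG4610 (0.97), ATPsynbeta (0.97) and CG7149 (0.97), and the closest to NimC1 were mRRF1 (0.98), nAChRbeta2 (0.98) and Mec2 (0.97). NimB5 was closest to ScsbetaG (0.96), Ndae1 (0.94) and CG31777 (0.93). For He the closest were sens-2 (0.99), Optix (0.99) and ScsbetaG (0.98), and for crq orion (0.98), Irc (0.98) and Arpc2 (0.98). These values rest on 12 arrays that share 4 groups, so genes that separate the same groups correlate highly, and the list is the top of 11982 genes.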

How the data were processed

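Each array has a deposited log2 signal for every probe set. RMA and limma are named, without versions, per the submitters' processing notes. No further scaling was applied. The table holds 18952 probe sets, of which 183 controls were left out and 18769 tested. The platform annotation gives 13647 of these 1 symbol, 402 several and 4720 none. In limma 3.58.1 under R 4.3.3, 4 group means and the replicate number as a fixed block were fitted to all 12 arrays (6 residual degrees of freedom, no variance trend), with Benjamini-Hochberg adjustment within each of 6 comparisons. Errors are standard errors of that fit and intervals are at 95%. The tests are two-sided. The fit was tested on simulated data.

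The replicate number was fitted as a block because the replicate 1 arrays stand apart. After removal of group means, all 18 correlations between same-numbered arrays were positive (0.489 to 0.880). Those between replicate 2 and replicate 3 arrays of different groups were positive too (0.396 to 0.784), so the sign does not show pairing. The positive correlations reflect replicate 1: differences between replicates 2 and 3 correlated between groups at -0.250 to 0.242. No 2 arrays shared more than 0.00533% of their values.

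All members are named, with the 3 genes most correlated with each called member and at most 3 called genes per further list, those with the largest change against control. Itgbn, Sr-CIV, Pvr and Ced-12 were named outside this rule, being called against Pc/ph cells and not against control. Of the listed genes those without a single-symbol probe set, ph-p and ph-d among them, were not analysed here. Members and lists were chosen with earlier results of these data known. Alternatives were the fit without the block, each array or replicate 1 left out, quantile and cyclic loess scaling, a filter on dim probe sets, a variance trend and other probe sets. A block of replicate 1 against the rest, and replicates 2 and 3 without a block, were chosen after seeing the data.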

Additional observations from a re-analysis of the deposited data

How the results depend on the processing

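The replicate block decides whether members are called. Without it limma called 0 members in every comparison (1, 1, 1, 2, 0 and 0 at an unadjusted p under 0.05) instead of 3, 2, 1, 5, 0 and 0 in PTIP, Pc/ph and Pc/ph+PTIP against control, Pc/ph+PTIP against Pc/ph and PTIP, and the interaction. In the fits that left out an array or replicate 1 these counts ranged from 1 to 5, 0 to 5, 1 to 4, 3 to 6, 0 to 1 and 0 to 2. The calls over all probe sets moved as well. In PTIP against control they ran from 475 without PTIP replicate 3 to 2566 without replicate 1, beside 1224 in the stated fit. Replicates 2 and 3 without a block gave 5, 4, 4, 6, 1 and 2, where 14, 5.86, 11.7, 15.7, 0.325 and 1.41% of probe sets were called. The shares in the stated fit were 6.52, 1.53, 5.57, 5.5, 0.032 and 0.186%. Over all 12 arrays without the block they were 0.272, 0.197, 0.272, 0.298, 0.032 and 0.00533%. In Pc/ph+PTIP against control the count was 2 after quantile scaling, with the filter on dim probe sets, with the variance trend and with a block of replicate 1 against the rest, NimC1 being added (adjusted p = 0.0328, 0.0423, 0.0323 and 0.0382). In these settings 1537, 1086, 988 and 1306 probe sets were called, beside 1046 in the stated fit. The filter left 9384 of the 18769 probe sets. Of the 11 called differences under 20 alternatives each, 186 of 220 values kept the call, 34 lost it (11 of these without the block and 23 with arrays left out) and 0 turned sign. Of the 49 others, 12 gained a call under some alternative. With 3 arrays per group and signals near background, NimC2, NimA and NimB4 are the least informative members.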
